A study of Mus musculus with 2 samples.

Results

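CC chemokines were followed through the cells of injured mouse muscle. The 10 members, Ccl2, Ccl3, Ccl4, Ccl6, Ccl7, Ccl8, Ccl9, Ccl11, Ccl19 and Ccl24, were taken as a list of symbols with no filter on level, and all of them were found among the 19169 genes of the table, which held 22 Ccl genes in all. Each was measured in every cell type that marker genes could define, and in the library of each genotype.

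The study examined how gasdermin E, a protein that opens pores in the plasma membrane of dying cells, bears on muscle repair. Gastrocnemius muscle of male mice was taken 14 days after injury by cardiotoxin (CTX), a venom toxin that lyses muscle fibers, and was dissociated into cells for capture in droplets. The WT group was 1 library from wild-type mice and the KO group 1 library from GSDME-KO mice, in which Gsdme was deleted in the whole animal. Both groups received CTX, so neither library is from uninjured muscle, and the methods give 5 mice per genotype. The methods state that wild-type mice were purchased from a supplier. They also describe breeding of heterozygotes to give littermates of either genotype. Which of these origins applied to the mice of the WT library is not stated, and a difference in origin was not tested. Age is not given in the sources used here, nor is it said whether the mice of a genotype were pooled.

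CC chemokines are small secreted proteins with adjacent cysteines near their amino end, which draw leukocytes along a gradient by binding G protein-coupled receptors. Many ligands share a receptor. CCL2 and CCL7 bind CCR2 and call monocytes from blood, CCL3 and CCL4 attract macrophages and lymphocytes, CCL6 and CCL9 bind CCR1, CCL11 and CCL24 are eotaxins that bind CCR3 on eosinophils, CCL8 of the mouse acts on CCR8, and CCL19 binds CCR7 on dendritic cells and naive T cells. In injured muscle, chemokines from stromal cells and macrophages recruit the leukocytes that clear debris.

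Captured RNA molecules were counted as unique molecular identifiers (UMIs). There were 44758518 UMIs in the 6354 cells of the library labelled WT (median per cell, 5740) and 50930010 in the 7078 cells of that labelled KO (median per cell, 5962.5). Only 4 barcodes occurred in both. Levels are given as UMIs per 1000000 UMIs of the same cells (CPM), and differences as the log2 ratio of KO over WT. With 1 library per genotype no test was possible. The ranges in brackets are exact 95% intervals that cover counting error only, not the variation between cells or between mice. Gsdme itself had 225 UMIs (5.03 CPM) under the WT label and 237 (4.65 CPM) under the KO label (log2 ratio, -0.11, -0.38 to 0.16), so every direction below rests on the labels.

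Clusters drawn without any chemokine gene were named from markers. Fibro-adipogenic progenitors (FAPs), the stromal cells of muscle that make its matrix, gave 1662 FAP-like cells in WT and 2137 in KO. Their 5 markers summed to 38510 and 41020 CPM, with none at 0. Macrophage-like cells numbered 839 and 1004, endothelial-like cells 1205 and 1198, pericyte-like cells 175 and 193, dendritic-like cells 115 and 125, and cells like muscle stem cells (MuSCs) 249 and 247. The 6 macrophage markers summed to 12757 and 12347 CPM in macrophage-like cells and to 30.9 and 36.1 CPM in FAP-like cells. Cluster 13, with 102 and 146 cells led by Lyz1, Retnla and Ear2, had no marker set that stood out and is called by its number.

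Of the 10 genes, 8 lay on mouse chromosome 11 in separate groups of neighbors (GRCm38, GENCODE annotation, all protein-coding). Ccl2 (chr11:82035571-82037453), Ccl7 (chr11:82045712-82047525), Ccl11 (chr11:82057823-82062955) and Ccl8 (chr11:82115185-82116799) followed each other on the + strand, with 8258 bases between Ccl2 and Ccl7 and 10297 between Ccl7 and Ccl11. Ccl12, which binds CCR2 and was not a member, lay between Ccl11 and Ccl8. Ccl9 (chr11:83572919-83578636), Ccl6 (chr11:83587882-83593087) and Ccl3 (chr11:83647844-83649355) were on the - strand and Ccl4 (chr11:83662584-83664683) on the + strand, with 9245 bases between Ccl9 and Ccl6 and 13228 between Ccl3 and Ccl4. Ccl19 (chr4:42754525-42756577) and Ccl24 (chr5:135569937-135573049) lay elsewhere, both on the - strand. Ccl19 has near-identical copies nearby on its chromosome, and its counts are therefore uncertain.

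RefSeq (GRCm38.p6) gave the bases before the start for 5 members, and 3 are shown: Ccl8, whose level differed most between the libraries in macrophage-like cells, and the neighbors Ccl6 and Ccl9, whose levels ran together over cell types. Each is the 250 bases upstream of the start, 5′ to 3′ on the strand of the gene, at chr11:82114935-82115184 (+) for Ccl8, chr11:83593088-83593337 (-) for Ccl6 and chr11:83578637-83578886 (-) for Ccl9. Capitals mark the motifs found.
Ccl8: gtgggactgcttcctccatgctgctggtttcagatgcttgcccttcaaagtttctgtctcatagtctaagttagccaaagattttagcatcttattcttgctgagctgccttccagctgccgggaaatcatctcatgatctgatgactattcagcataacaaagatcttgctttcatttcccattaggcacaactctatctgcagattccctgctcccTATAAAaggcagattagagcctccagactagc
Ccl6: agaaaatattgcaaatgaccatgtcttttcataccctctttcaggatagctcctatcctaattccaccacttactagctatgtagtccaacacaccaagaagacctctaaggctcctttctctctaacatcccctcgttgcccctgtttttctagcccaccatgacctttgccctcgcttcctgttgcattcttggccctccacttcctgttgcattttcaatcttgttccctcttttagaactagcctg
Ccl9: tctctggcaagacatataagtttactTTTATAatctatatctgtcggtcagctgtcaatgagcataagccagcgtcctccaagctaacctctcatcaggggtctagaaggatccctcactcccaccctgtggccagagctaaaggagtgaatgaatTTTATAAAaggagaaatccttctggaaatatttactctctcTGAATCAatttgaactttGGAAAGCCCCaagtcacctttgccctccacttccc
The motifs searched on both strands were TATAAA, held by 12.4% of the 32851 promoters of the same length, the AP-1 motif TGANTCA (6.75%), the STAT motif TTCNNNGAA (7.02%), the interferon-response core (2.98%) and the NF-kB consensus (7.25%). Ccl8 held TATAAA 32 to 27 bases before its start. Ccl9 held TATAAA in overlapping matches 94 to 87 bases and, on the other strand, 224 to 219 bases before its start, the AP-1 motif 53 to 47 bases before it and the NF-kB consensus 35 to 26 bases before it on the other strand. None of the searched motifs occurred in the window of Ccl6. These are matches of letters and say nothing of binding.

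**Figure D1:**
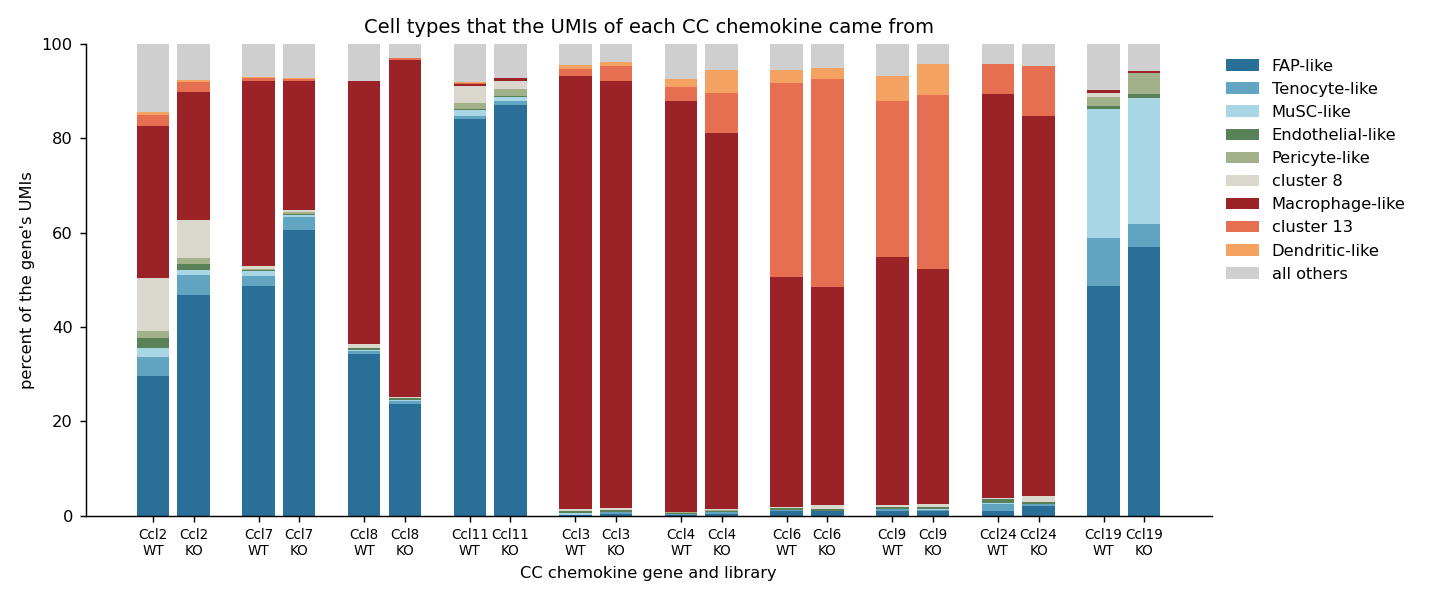
Share of the UMIs of each CC chemokine by cell type, in percent of all UMIs of that gene in a library, with WT and KO bars side by side. FAP-like cells held most Ccl11 UMIs (84.1% and 87.1%) and macrophage-like cells most Ccl3 UMIs (91.8% and 90.6%).

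The members came from different cells. Ccl11 was mainly a product of FAP-like cells, which held 84.1% of its UMIs in WT and 87.1% in KO while making up 26.2% and 30.2% of the cells. Ccl3, Ccl4 and Ccl24 came mainly from macrophage-like cells, which were 13.2% and 14.2% of the cells and held 91.8% and 90.6% of Ccl3, 87.2% and 79.6% of Ccl4, and 85.7% and 80.6% of Ccl24. Ccl6 and Ccl9 were shared between macrophage-like cells (48.7% and 46.2% of Ccl6) and cluster 13 (41.1% and 44.1%), which was only 1.61% and 2.06% of the cells. Ccl2 and Ccl7 were divided between stroma and macrophages. FAP-like cells held 29.7% of Ccl2 in WT and 46.8% in KO, and macrophage-like cells 32.2% and 27.1%.

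**Figure D2:**
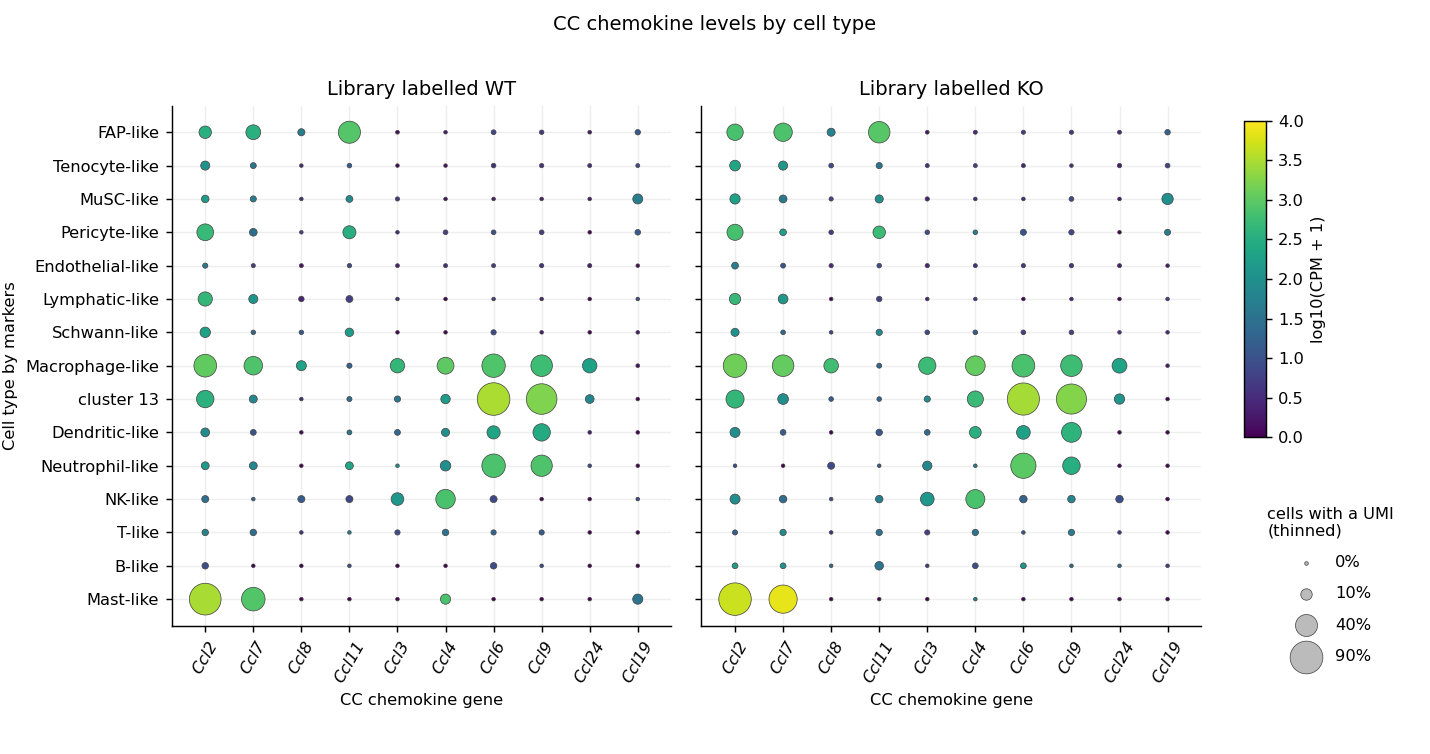
Level of each CC chemokine by cell type and library, with the color of a dot as log10(CPM + 1) and its area as the percent of cells with a UMI after thinning to 1000 UMIs per cell. Ccl11 is high in FAP-like cells (865 and 878 CPM), and Ccl3 in macrophage-like cells (449 and 539 CPM).

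Over all cells, the log2 ratios of the members ran from -0.0075 for Ccl6 to 1.29 for Ccl8. The share of all genes higher in KO was not taken over all cells, so these ratios have no background beside them. Ccl8, at 36.6 CPM in WT and 89.2 in KO, had the largest log2 ratio, 1.29 (1.203 to 1.37), followed by Ccl7 with 1.09 (1.05 to 1.12) from 201 to 426 CPM and Ccl2 with 0.65 (0.62 to 0.68) from 328 to 514 CPM. Ccl6 stood at 165 and 164 CPM. These totals also carry the shares of the cell types, since FAP-like cells were a larger part of the KO library.

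Ccl2, the main ligand of CCR2, stood at 341 CPM (330 to 351) in FAP-like cells of WT, from 4356 UMIs, and at 675 CPM (663 to 687) in those of KO, from 12248 UMIs. The log2 ratio was 0.99 (0.94 to 1.04), or 1.98-fold. Ccl7, its neighbor, which binds the same receptor, had nearly the same levels in these cells, 342 CPM in WT and 724 in KO, with a log2 ratio of 1.08 (1.03 to 1.13). For both genes the KO library was higher and the intervals of the levels were far apart. Among the 11478 genes with at least 50 UMIs in FAP-like cells over both libraries, 3.68% were at least 1.5-fold higher in KO and 6.32% at least 1.5-fold lower. Of the 7 members that reached 50 UMIs there, Ccl2 and Ccl7 were past 1.5-fold higher and none was lower. The median log2 ratio was 0.41 over the 7 and -0.06 over all genes tested.

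More FAP-like cells held Ccl2 RNA in KO, and more of them held much of it. After each cell was thinned to 1000 UMIs, the share with a Ccl2 UMI was 12.02% (10.5 to 13.7) in WT and 21.8% (20.02 to 23.6) in KO, and 26.0% and 36.3% before thinning. Endothelial-like cells, taken as the comparison for free RNA, had thinned shares of 1.196% and 2.90%. FAP-like cells with 10 or more Ccl2 UMIs were 103 of 1662 (6.20%, 5.09 to 7.47) in WT and 310 of 2137 (14.5%, 13.04 to 16.1) in KO. The same count for Ccl7 was 141 (8.48%, 7.19 to 9.93) and 378 (17.7%, 16.1 to 19.4). Ccl2 was uneven, since the 10% of cells with most Ccl2 held 89.3% of its UMIs in WT and 77.9% in KO, and the highest cell had 422 and 211.

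**Figure D3:**
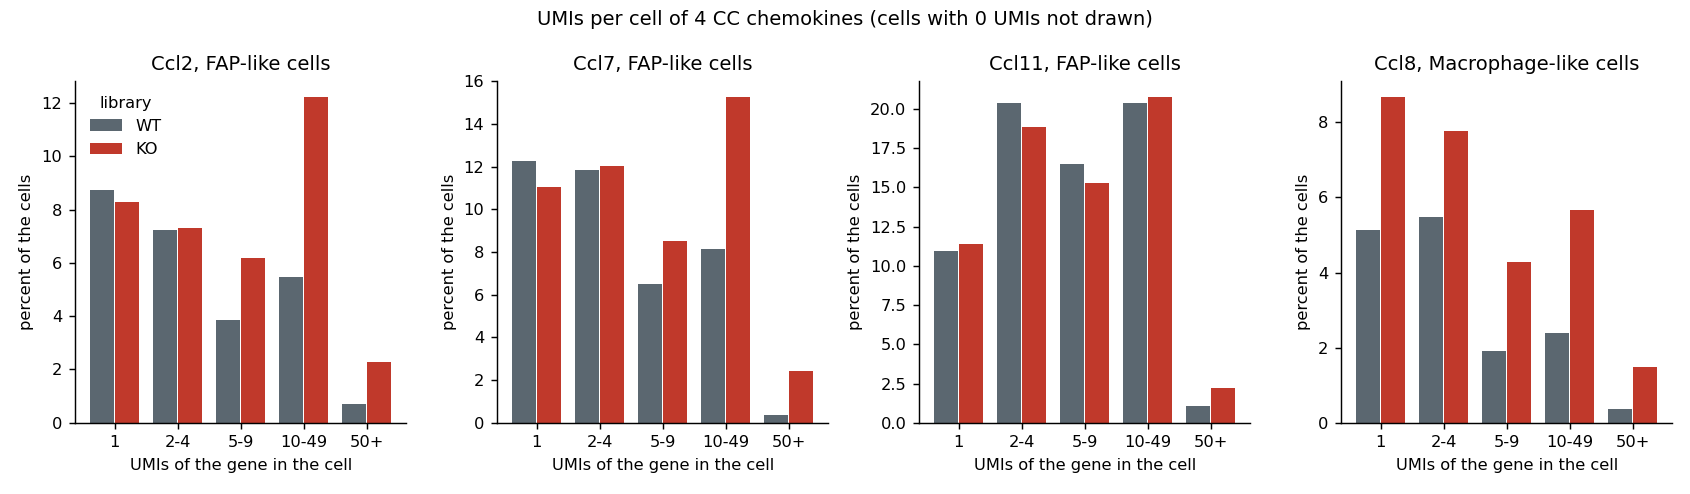
Percent of cells by the number of UMIs of the gene in the cell, for Ccl2, Ccl7 and Ccl11 in FAP-like cells and Ccl8 in macrophage-like cells, with WT and KO side by side. Cells with 10 or more UMIs of Ccl2 were 6.20% in WT and 14.5% in KO, while those of Ccl11 were 21.4% and 22.9%.

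FAP-like cells were clustered again into named subsets. Pi16 Dpp4 FAP-like cells, which carry markers of stromal progenitors, numbered 296 and 383. Their Ccl2 level was 222 CPM in WT and 998 in KO, a log2 ratio of 2.17 (2.04 to 2.29). Clu FAP-like cells followed with 63.6 and 277 CPM and a ratio of 2.12 (1.81 to 2.45). In Sfrp4 FAP-like cells Ccl2 stood at 359 and 807 CPM (1.17, 1.006 to 1.34), in Interferon FAP-like cells at 555 and 791 CPM (0.51, 0.44 to 0.58), and in Hsd11b1 Mme FAP-like cells at 320 and 394 CPM (0.30, 0.19 to 0.41). KO was higher in all 5 subsets. The sizes moved with the 10 cells that held most Ccl2 in each library. Without them the ratio was 1.13 in Hsd11b1 Mme, 1.11 in Interferon and 2.09 in Sfrp4 FAP-like cells, and as the mean over cells it was 0.70, 0.56 and 1.38. The order of the subsets differed between the libraries, since Interferon FAP-like cells had the highest Ccl2 level in WT and Pi16 Dpp4 FAP-like cells the highest in KO. The counting interval of the Pi16 Dpp4 ratio lay above that of the Sfrp4, Interferon and Hsd11b1 Mme ratios and overlapped that of the Clu ratio. Such intervals leave out the spread between cells, and the ratios without the 10 top cells lay outside them in Sfrp4, Interferon and Hsd11b1 Mme FAP-like cells. The intervals therefore do not rank the subsets.

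Ccl7 was also higher in KO in each of these subsets. It stood at 248 and 645 CPM in Pi16 Dpp4 FAP-like cells (1.38, 1.253 to 1.504) and at 54.6 and 239 CPM in Clu FAP-like cells (2.13, 1.79 to 2.48). Sfrp4 FAP-like cells had 395 and 1084 CPM (1.46, 1.304 to 1.61) and Interferon FAP-like cells 564 and 1100 CPM (0.96, 0.90 to 1.03). Hsd11b1 Mme FAP-like cells had 283 and 410 CPM (0.53, 0.42 to 0.65). These last cells were led by Fos, Jun, Egr1 and Hspa1a beside Hsd11b1. Over 24 immediate-early and heat-shock genes, the median log2 ratio was 0.96 there, 0.41 in Pi16 Dpp4, 0.28 in Clu, 0.21 in Sfrp4 and 0.10 in Interferon FAP-like cells. Over all FAP-like cells 12 of the 24 were at least 1.5-fold higher and none lower, with a median of 0.60. There 5 of 9 interferon response genes were at least 1.5-fold lower, with a median of -0.67. Of all genes in FAP-like cells 3.68% were higher and 6.32% lower by as much. The part of both lists in the results was not tested. The Interferon FAP-like cells were led by Igkc and Jchain beside Ifit1 and Ifit3, and the median log2 ratio of 9 interferon response genes there was -0.80, so this subset was drawn on genes that differed between the libraries.

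**Figure D4:**
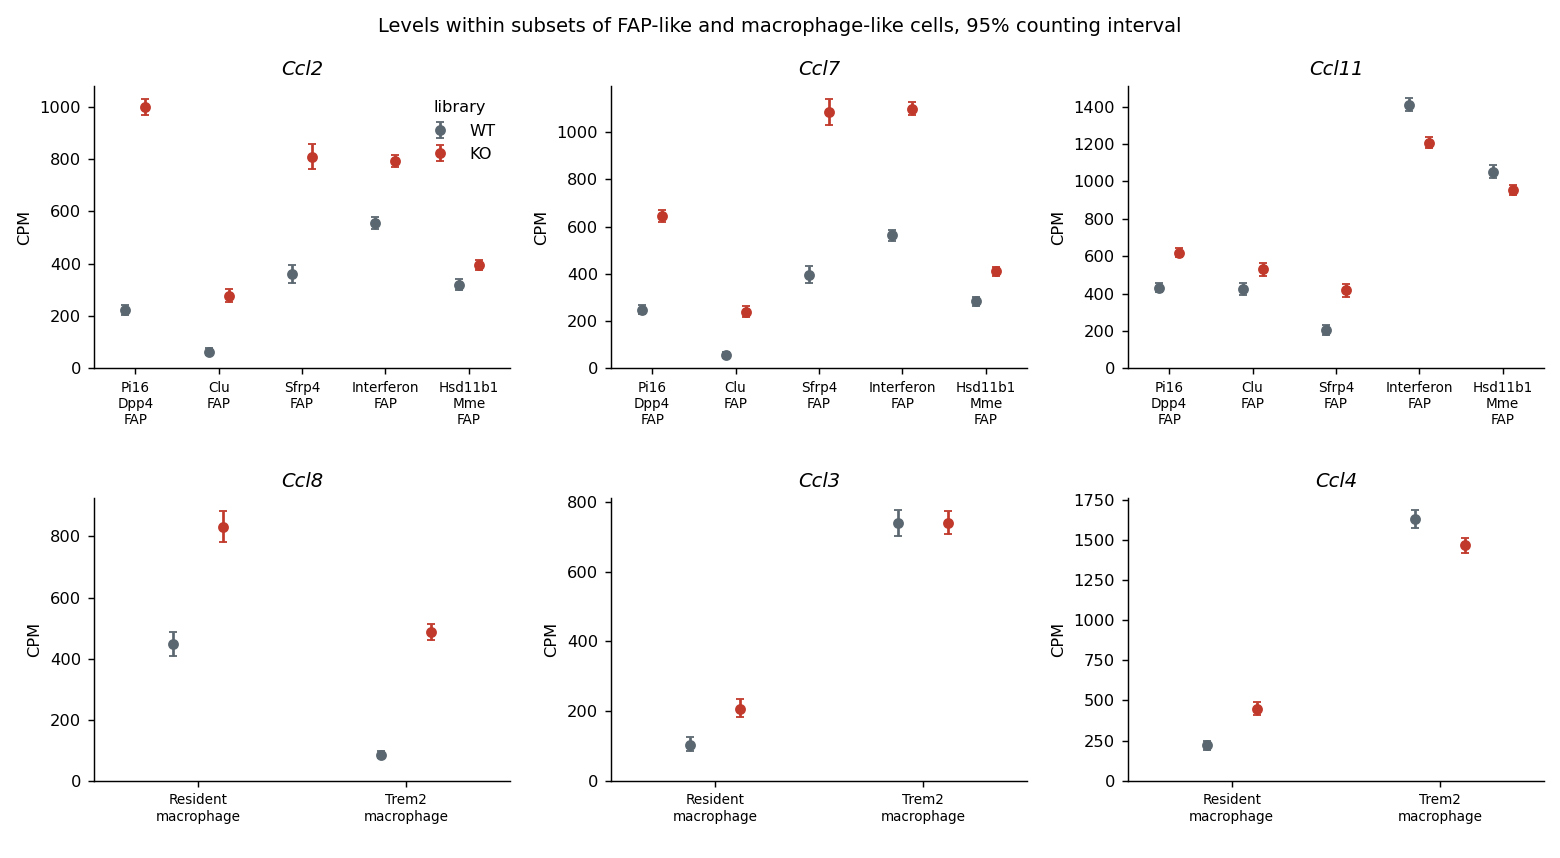
Level in CPM with exact 95% intervals, WT and KO side by side, for Ccl2, Ccl7 and Ccl11 in 5 FAP-like subsets and for Ccl8, Ccl3 and Ccl4 in resident and Trem2 macrophage-like cells. Ccl2 was highest in Interferon FAP-like cells in WT (555 CPM) and in Pi16 Dpp4 FAP-like cells in KO (998 CPM).

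In macrophage-like cells the same pair of genes was at a higher level than in FAP-like cells and the ratios were smaller. Ccl2 stood at 1041 CPM (1011 to 1071) in WT and 1295 (1265 to 1325) in KO, a log2 ratio of 0.32 (0.26 to 0.37). Ccl7 stood at 775 and 1079 CPM, with a ratio of 0.48 (0.42 to 0.54). Neither was past 1.5-fold. Macrophage-like cells with a Ccl2 UMI after thinning were 42.7% (39.1 to 46.3) and 45.9% (42.6 to 49.2), which overlap. FAP markers summed to 447 and 548 CPM in macrophage-like cells.

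Outside these types, tenocyte-like cells, which carry tendon markers, had 106 CPM of Ccl2 in WT and 230 in KO, a log2 ratio of 1.12 (0.97 to 1.27), and 35.8 and 134 CPM of Ccl7, a ratio of 1.91 (1.67 to 2.15). Together with Ccl11, these made 3 of the 4 members with 50 UMIs in tenocyte-like cells at least 1.5-fold higher in KO, where 7.15% of all genes were. Their UMIs lay in few cells, with 93.99% or more of Ccl7 in the top 10% of cells. Pericyte-like cells, contractile cells of vessel walls, were led by Acta2, Myh11 and Tagln, with Abcc9 next. Ccl2 stood there at 491 CPM in WT and 671 in KO (0.45, 0.20 to 0.70). Ccl7 there had 11 UMIs in WT and 85 in KO, 56 of them in 1 cell. Ccl7 and Ccl11 were 2 of 3 members past 1.5-fold in pericyte-like cells, beside 7.69% of all genes. For Ccl11 this ended when cells were scored by markers one by one, where its ratio was -0.42. FAP markers in pericyte-like cells summed to 2340 CPM in WT and 3953 in KO, and red-cell markers to 120 and 17443 CPM. Their part in the result was not tested.

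Endothelial-like cells, which line the vessels, held little of these genes, with 41.2 and 49.1 CPM of Ccl2 (0.25, 0.02 to 0.48). The mean over cells gave -0.04, and the alternatives reached 0.67. Within them, arterial-like cells had 63.6 and 105 CPM (0.72, 0.41 to 1.04). A subset of 51 and 60 cells that stayed unnamed went the other way, with 205 and 67.0 CPM (-1.61, -2.18 to -1.07). These levels rest on 114 and 38 UMIs, and the mean over cells gave -3.39. Over all endothelial-like cells Ccl7 stood at 4.33 and 10.1 CPM. It was the only 1 of 4 members past 1.5-fold higher there, beside 4.25% of all genes. Lymphatic-like cells, from vessels that drain lymph, had far more Ccl2, 438 and 479 CPM, and this ratio, 0.13 (-0.11 to 0.37), did not leave the counting error. MuSC-like cells had 155 and 191 CPM of Ccl2 (0.30, 0.06 to 0.55) and 44.1 and 39.7 CPM of Ccl7 (-0.15, -0.66 to 0.35). As the mean over cells these ratios were 0.99 for Ccl2 and 0.56 for Ccl7, and over the alternatives tried Ccl2 ranged from 0.25 to 2.85. Schwann-like cells, the glia of nerves, went the other way, with 195 CPM of Ccl2 in WT and 103 in KO (-0.92, -1.29 to -0.56). The mean over cells there gave -0.08.

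Unnamed clusters went both ways for Ccl2. Cluster 11, shallow cells with FAP markers, had 594 CPM in WT and 1111 in KO (0.90, 0.68 to 1.13), and cluster 8, in which pericyte and endothelial markers met, had 381 and 405 CPM (0.09, -0.01 to 0.18). Cluster 18, in which no marker set stood out, had 214 and 407 CPM (0.93, 0.71 to 1.14). Cluster 22, led by cycling genes, had 692 and 393 CPM (-0.82, -1.03 to -0.61). Cluster 26, a mix of macrophage and FAP markers in 20 and 28 cells, had 1011 and 401 CPM (-1.33, -1.64 to -1.03). As the mean over cells the ratio was 2.05 in cluster 11, 0.18 in cluster 8, 1.34 in cluster 18, -0.23 in cluster 22 and -1.12 in cluster 26.

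Mast-like cells had the highest Ccl2 level in both libraries, but they were few and shallow, with medians of 1128 and 979 UMIs per cell. Ccl2 stood at 2944 CPM (2367 to 3619) in 22 cells of WT and at 4868 CPM (4012 to 5852) in 21 cells of KO. These levels rest on 90 and 113 UMIs. Ccl7 stood at 818 and 7107 CPM, from 25 and 165 UMIs, 50 of the latter in 1 cell. These cells were thus first in the order of types for Ccl2 in both libraries, and macrophage-like cells came next. The Ccl7 interval of mast-like cells overlapped that of macrophage-like cells in WT and lay above it in KO. FAP markers there summed to 2879 CPM in WT and 689 in KO, and those of macrophages to 0 and 43.1 CPM.

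Ccl11, an eotaxin, marked the stroma in both libraries alike. FAP-like cells held 865 CPM (849 to 881) in WT and 878 (864 to 891) in KO, a log2 ratio of 0.02 (-0.01 to 0.06), and the thinned share of cells with a UMI was 40.4% (37.995 to 42.8) and 38.2% (36.1 to 40.3). The subsets did not move together. Interferon FAP-like cells had 1411 CPM in WT and 1208 in KO (-0.22, -0.27 to -0.17), and Hsd11b1 Mme FAP-like cells 1053 and 953 CPM (-0.14, -0.21 to -0.08). Pi16 Dpp4 FAP-like cells had 432 and 620 CPM (0.52, 0.42 to 0.63), Clu FAP-like cells 425 and 529 CPM (0.32, 0.17 to 0.46), and Sfrp4 FAP-like cells 205 and 417 CPM (1.02, 0.80 to 1.25). The subsets with the most Ccl11 in WT were therefore lower in KO and those with less were higher, and the near-equal total hides both. Only Sfrp4 FAP-like cells were past 1.5-fold. In tenocyte-like cells Ccl11 stood at 15.2 and 33.8 CPM (1.16, 0.76 to 1.56), in pericyte-like cells at 333 and 528 CPM (0.67, 0.37 to 0.97), and in macrophage-like cells at 16.5 and 19.3 CPM (0.23, -0.21 to 0.67). The pericyte-like ratio turned to -0.42 with markers scored per cell. MuSC-like cells had 84.5 and 95.9 CPM (0.18, -0.16 to 0.52), with a range from -0.07 to 1.84 over the alternatives. In cluster 8 Ccl11 was lower in KO, at 109 and 57.2 CPM (-0.93, -1.14 to -0.72). It was also lower in Schwann-like cells, at 162 and 77.9 CPM (-1.06, -1.47 to -0.65). Dendritic-like cells had 34.6 and 11.8 CPM (-1.55, -2.60 to -0.58), from 33 and 13 UMIs. The mean over cells gave -0.55, -1.60 and -0.37 in these groups, in that order.

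Ccl24, the other eotaxin of the list, came from macrophages instead. Resident macrophage-like cells, which carry Lyve1, Folr2 and Cd163, held 565 CPM (522 to 611) in WT and 594 (552 to 639) in KO, a log2 ratio of 0.07 (-0.08 to 0.23). Trem2 macrophage-like cells held 33.1 CPM in WT and 92.0 in KO (1.47, 1.09 to 1.88), from 72 and 234 UMIs. Over all macrophage-like cells the ratio was 0.14 (0.02 to 0.27), from 197 to 217 CPM. The gene thus differed between the libraries mostly where it was low.

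Ccl8 was the member whose macrophage level differed most. It stood at 201 CPM (188 to 215) in macrophage-like cells of WT and 593 (573 to 614) in those of KO, from 913 and 3252 UMIs, a log2 ratio of 1.56 (1.45 to 1.67) or 2.95-fold. It was the only 1 of 9 members past 1.5-fold higher in macrophage-like cells and none was past it lower, where 4.3% of 8834 genes were higher and 7.55% lower. The members' median log2 ratio was 0.23 and that of all genes -0.04. Thinned shares of cells with a Ccl8 UMI were 7.45% (5.67 to 9.56) and 16.9% (14.6 to 19.5). Cells with 10 or more UMIs were 23 of 839 (2.74%, 1.75 to 4.09) and 72 of 1004 (7.17%, 5.65 to 8.95). The 10% of cells with most Ccl8 held 95.1% and 88.3% of its UMIs.

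The difference of Ccl8 was found in both named macrophage subsets. Resident macrophage-like cells had 446 CPM in WT and 832 in KO (0.90, 0.74 to 1.06). Trem2 macrophage-like cells, which numbered 299 and 363 and were led by Slc7a11, Clec4e and Mmp12, had 85.2 and 487 CPM (2.52, 2.29 to 2.75). Resident cells remained the higher of the pair in each library. Cluster 26, the mix of macrophage and FAP markers, went the other way, with 316 CPM in WT and 135 in KO (-1.23, -1.78 to -0.70). These levels rest on 72 and 51 UMIs, and the mean over cells gave -0.71. In WT its Ccl8 level (248 to 399) lay above that of macrophage-like cells. In FAP-like cells Ccl8 stood at 43.9 and 59.3 CPM (0.43, 0.28 to 0.58), with 84.2 and 94.4 CPM in Interferon FAP-like cells (0.16, -0.03 to 0.36) and 21.9 and 49.2 CPM in Pi16 Dpp4 FAP-like cells (1.17, 0.74 to 1.62). Of all genes in macrophage-like cells 4.3% were at least 1.5-fold higher and 7.55% lower. Immediate-early and heat-shock genes gave 5 higher and 2 lower of 24 there, with a median of 0.04. The median in Trem2 macrophage-like cells was -0.02. Interferon response genes were at least 1.5-fold lower in KO for 6 of 9 in macrophage-like cells, with a median of -0.87. Their part in the result was not tested.

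Ccl3 and Ccl4, neighboring genes for inflammatory chemokines, were macrophage products in both libraries. Macrophage-like cells had 449 and 539 CPM of Ccl3 (0.26, 0.18 to 0.35) and, for Ccl4, 1021 and 1109 CPM (0.12, 0.06 to 0.17). Thinned shares of cells with a UMI were 16.6% (14.03 to 19.5) and 24.3% (21.6 to 27.2) for Ccl3, and 23.1% (20.2 to 26.3) and 32.0% (29.0 to 35.2) for Ccl4. In both genes the share of cells differed more than the level. The subsets again differed. In Trem2 macrophage-like cells, where these genes were highest, Ccl3 stood at 739 and 740 CPM (0.00, -0.09 to 0.10) and Ccl4 at 1629 and 1465 CPM (-0.15, -0.22 to -0.09). In resident macrophage-like cells Ccl3 stood at 103 and 207 CPM (0.998, 0.68 to 1.33) and Ccl4 at 220 and 449 CPM (1.03, 0.81 to 1.25).

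Ccl4 was also higher in KO in dendritic-like cells and in cluster 13, and lower in cluster 26 and mast-like cells. Dendritic-like cells, which carry Flt3 and Cd209a, had 97.6 and 345 CPM (1.82, 1.49 to 2.17), from 93 and 379 UMIs, of which 1 cell held 49 in WT and 1 held 106 in KO. It was 1 of 4 members past 1.5-fold higher in dendritic-like cells, beside 9.51% of all genes. In cluster 13 Ccl4 stood at 156 and 509 CPM (1.71, 1.45 to 1.98, and 0.91 as the mean over cells), Ccl3 at 37.4 and 79.3 CPM (1.09, 0.53 to 1.68) and Ccl24 at 68.5 and 121 CPM (0.83, 0.40 to 1.26). These were the 3 of 7 members past 1.5-fold higher there and none was past it lower, beside 9.13% of all genes higher and 7.56% lower. Thinned shares of Ccl4 in cluster 13 were 6.45% (2.40 to 13.5) and 21.0% (14.5 to 28.8). In cluster 26, an unnamed cluster, Ccl4 stood at 743 and 238 CPM (-1.64, -2.03 to -1.27), with 128 of the 169 WT UMIs in 1 cell. Mast-like cells had 22 UMIs of Ccl4 in WT, all in 1 cell, and 1 in KO. Natural killer-like cells, cytotoxic lymphocytes, had 706 and 717 CPM of Ccl4, next after macrophage-like cells in KO, with overlapping intervals between the libraries.

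Ccl6 and Ccl9, ligands of CCR1, were the members with the smallest ratios over all cells. Cluster 13 had the highest level of both. Ccl6 stood there at 3148 CPM (3037 to 3262) in WT and 2867 (2775 to 2961) in KO (-0.14, -0.20 to -0.07), and Ccl9 at 1656 and 1834 CPM (0.15, 0.05 to 0.24). In macrophage-like cells Ccl6 stood at 792 and 705 CPM (-0.17, -0.23 to -0.10) and Ccl9 at 559 and 578 CPM (0.05, -0.03 to 0.12). Ccl6 and Ccl9 were both higher in resident macrophage-like cells (1215 and 1093 CPM of Ccl6) than in Trem2 macrophage-like cells (615 and 522 CPM). Neutrophil-like cells, 25 and 32 in number, had 725 and 945 CPM of Ccl6 (0.38, 0.01 to 0.76) and 752 and 320 CPM of Ccl9 (-1.24, -1.76 to -0.73). In dendritic-like cells Ccl9 stood at 266 and 378 CPM (0.50, 0.28 to 0.73) and Ccl6 at 216 and 184 CPM (-0.23, -0.52 to 0.06). FAP-like cells held at most 5.32 CPM of either.

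Ccl19, a ligand of CCR7, was the least counted member, with 319 and 512 UMIs in all. MuSC-like cells had 46.8 CPM (37.5 to 57.7) in WT and 93.2 (78.2 to 110) in KO, from 87 and 136 UMIs, a log2 ratio of 0.99 (0.59 to 1.40). The mean over cells gave 0.56. It was 1 of 4 members past 1.5-fold higher in MuSC-like cells, where 13.1% of all genes were. Thinned shares of MuSC-like cells with a Ccl19 UMI were 7.41% (4.45 to 11.45) and 9.88% (6.43 to 14.3), which overlap. Among FAP-like cells, the Sfrp4 subset held most, 81.9 and 93.9 CPM (0.20, -0.20 to 0.60), and Ccl19 was among its leading genes. Interferon FAP-like cells had 3 and 13.3 CPM (2.15, 1.27 to 3.16), from 12 and 80 UMIs.

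**Figure D5:**
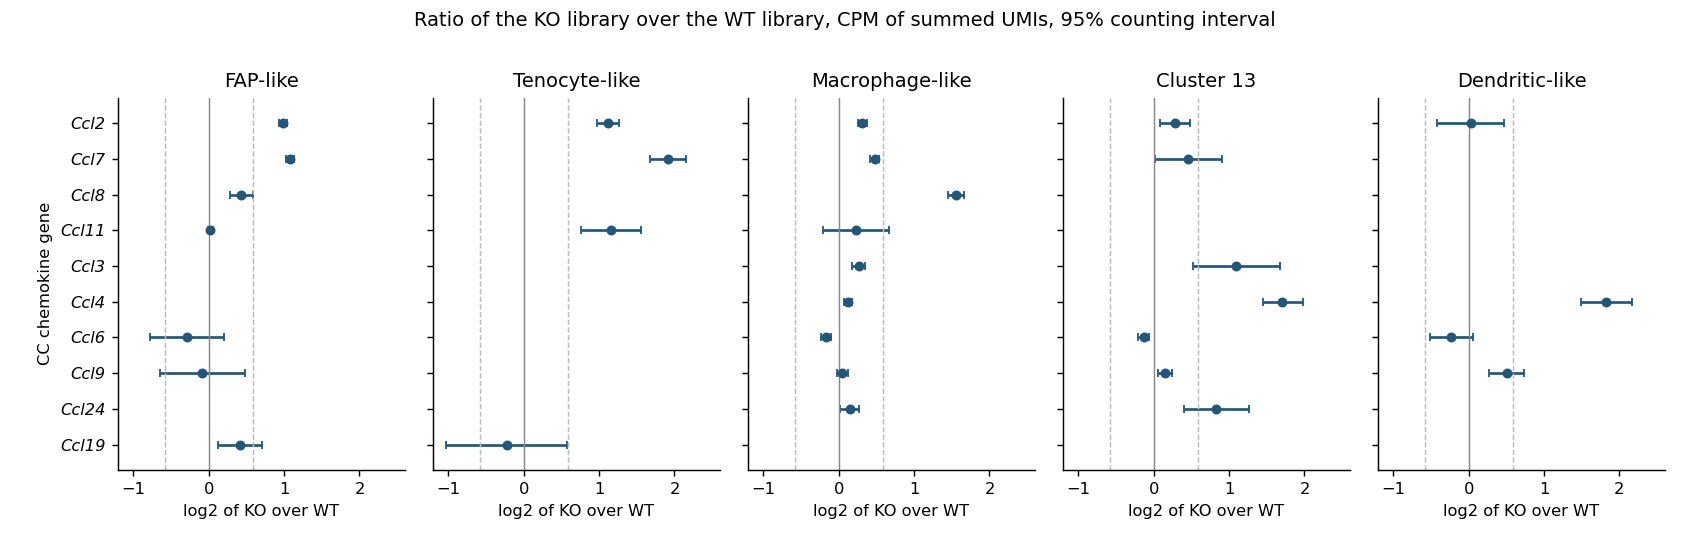
Log2 ratio of KO over WT of each CC chemokine with its 95% counting interval, for FAP-like, tenocyte-like, macrophage-like, cluster 13 and dendritic-like cells, for genes with at least 50 UMIs. Dashed lines mark 1.5-fold. Ccl2 (0.99) and Ccl7 (1.08) lie past the line in FAP-like cells, Ccl8 (1.56) in macrophage-like cells, and Ccl4 (1.71 and 1.82) in cluster 13 and dendritic-like cells.

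Some pairs of members were often read in the same cells. After thinning, 36.9% of FAP-like cells with Ccl2 also held Ccl7 in WT, against 14.9% of those without Ccl2, and 43.9% against 23.3% in KO. In macrophage-like cells the same shares were 43.9% against 16.5% in WT and 57.1% against 22.6% in KO. Macrophage-like cells with Ccl3 held Ccl4 in 52.0% against 17.4% in WT and in 52.0% against 25.6% in KO, and those with Ccl6 held Ccl9 in 50.1% against 28.4% and in 49.4% against 30.2%. Ccl8 and Ccl24, both highest in resident macrophage-like cells, gave 35.7% against 15.1% in WT and 19.5% against 17.2% in KO. These shares pool the subsets of a type.

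The likeness of the genes over cell types was described by Pearson's r of log2(CPM + 10) over 44 points, each a type or cluster with at least 20 cells in both libraries. The points share library and depth, and r is a description only. Ccl7 was the gene most like Ccl2 (0.81), and Ccl6 and Ccl9 reached 0.952 with each other, beside Cd14 for Ccl6 (0.952) and Clec4a2 for Ccl9 (0.959). Ccl3 was most like Aoah (0.895), and Ccl4 most like Fcer1g (0.884). Ccl8 was most like Ms4a7 (0.844), Ccl11 like Ms4a4d (0.888), Ccl19 like Nppc (0.743) and Ccl24 like C1qb (0.914). Ccl2 had r of 0.087 with Ccl3 and 0.256 with Ccl11, although Ccl11 is on the same stretch of chromosome 11.

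The other CC ligands went in both directions. Of 13 such genes listed, 10 were in the table, and 4 reached 50 UMIs in FAP-like cells, with none at least 1.5-fold higher in KO and 1 lower, Ccl5, where 6.32% of all genes were lower. In macrophage-like cells 4 reached it, with none higher and 2 lower, where 7.55% of all genes were lower. Ccl5, a chemokine made by T cells and natural killer cells, stood there at 77.1 and 32.8 CPM (-1.23, -1.50 to -0.97), and in dendritic-like cells at 1954 and 690 CPM (-1.50, -1.63 to -1.38). In tenocyte-like cells Ccl5 was higher in KO, at 3.19 and 22.3 CPM (2.81, 2.06 to 3.64), and so it was in cluster 13, at 34.2 and 174 CPM (2.35, 1.82 to 2.92). Natural killer-like cells, where it was highest, had 6689 and 8962 CPM (0.42, 0.30 to 0.55). Ccl12, a ligand of CCR2 between Ccl11 and Ccl8, stood in macrophage-like cells at 225 and 210 CPM (-0.10, -0.22 to 0.02). Ccl17, a ligand of CCR4, stood in dendritic-like cells at 302 and 68.3 CPM (-2.14, -2.53 to -1.77), and Ccl22, which binds the same receptor, at 469 and 539 CPM (0.20, 0.02 to 0.38).

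The receptors were read mainly in leukocytes. In macrophage-like cells 4 of 14 receptor genes reached 50 UMIs and none was past 1.5-fold. Ccr2 stood at 113 and 166 CPM (0.56, 0.40 to 0.71) and Ccr1 at 94.0 and 138 CPM (0.56, 0.38 to 0.73). Cluster 13 had a Ccr2 level above that of macrophage-like, dendritic-like and neutrophil-like cells, 453 and 412 CPM (-0.14, -0.32 to 0.05). Ccr7, the receptor for CCL19, stood at 375 and 199 CPM in dendritic-like cells (-0.92, -1.17 to -0.67). In FAP-like cells, of 4 receptor genes only Ackr4 was past 1.5-fold higher, beside 3.68% of all genes. It stood at 2.66 and 4.02 CPM (0.60, -0.01 to 1.23). Ackr1, a receptor that binds chemokines, stood at 47.5 and 68.6 CPM (0.53, 0.39 to 0.67). The receptors Ccr3 and Ccr8 stayed below 50 UMIs in every type. The feedback genes of the NF-kB pathway were at least 1.5-fold higher in KO for 5 of 11 in FAP-like cells (median 0.50), beside 3.68% of all genes. In macrophage-like cells 3 of 11 were (median 0.27), beside 4.3% of all genes. None was lower in either, where 6.32% and 7.55% of all genes were. The part of these feedback genes in the results was not tested.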

How the data were processed

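Single-cell RNA sequencing libraries of the 5′ kit, 1 per genotype, were aligned to mm10 by the authors, whose processing notes name Cell Ranger 2.1.1 and whose methods name another version. Per the methods, doublets and cells with over 10% mitochondrial RNA were removed. The authors deposited 13432 cells, as many as their Results give and fewer than their methods give, each value being the natural log of 1 plus the UMIs of a gene per 10000 in the cell. Inverting it gave whole UMIs within 0.247 for all 29528482 values above 0. No mitochondrial gene is listed, so that filter could not be checked. Group came from the labels, and the barcode suffix gave the library. No test was fitted.

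Cells were clustered (2000 variable genes without chemokine ligand genes, 29 of which would have been among them; the Harmony steps written in numpy 2.4.6; 30 principal components; resolution 0.8) with igraph 0.11.9, scikit-learn 1.9.0 and scanpy 1.11.5 in Python 3.11.15. Each cluster was named by the marker list highest in mean log2 fold, subsets likewise with 20 components. Clusters with leading genes of another type, a mix, under 3 markers detected or low depth stayed unnamed; these naming rules were set after the clusters were seen. Intervals were exact (Poisson for CPM, Clopper-Pearson for shares, conditional binomial for ratios, by scipy 1.17.1). All 10 members are named. The other ligands, receptors, and the immediate-early, NF-kB feedback and interferon lists were fixed as lists, but members and lists were chosen with earlier results of these data known. A study group of macrophages named by members was not drawn, and 1 listed receptor gene is not reported here.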

Additional observations from a re-analysis of the deposited data

How the results depend on the processing

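The alternatives were no integration, resolution 0.4 or 1.2, chemokine genes kept among the variable genes, cell types scored per cell from markers, the mean over cells, cells under 1000 UMIs or Scrublet doublets left out, and the 10 cells with most UMIs of the gene left out. The log2 ratio of Ccl2 in FAP-like cells was 0.77 with markers scored per cell, 1.11 as the mean over cells and 1.37 without the 10 top cells. Ccl7 in FAP-like cells gave 0.98 with no integration, 1.16 as the mean over cells and 1.16 without the 10 top cells, and Ccl8 in macrophage-like cells gave 1.98 without the 10 top cells. At a minimum of 10 UMIs, Ccl3, Ccl4 and Ccl24 also entered in FAP-like cells, and Ccl4 and Ccl24 were past 1.5-fold higher. Ccl4 had 12 and 33 UMIs (0.96, -0.03 to 2.04) and Ccl24 had 11 and 31 (0.99, -0.04 to 2.13). Neither ratio left the counting error, and the share of all genes at this minimum is not given. Ccl11 in pericyte-like cells reversed to -0.42 with markers scored per cell, and the cause was not tested. Of the main results 23 values stayed within their counting interval and 8 moved, and of the others 325 stayed, 116 moved and 1 reversed. Ratios moved in types and in subsets. Over 9 alternatives Ccl2 ranged from 0.25 to 2.85 in MuSC-like cells. Over 4 alternatives it ranged from 2.17 to 2.61 in Pi16 Dpp4 FAP-like cells and from 0.30 to 1.13 in Hsd11b1 Mme FAP-like cells. In Interferon FAP-like cells Ccl2 ranged from 0.51 to 1.11, and in Trem2 macrophage-like cells Ccl8 ranged from 2.47 to 4.04. No paired analysis was possible because each genotype had 1 library, and for the same reason no library could be left out. Intervals cover counting error only, and levels of a few CPM rest on under 100 UMIs.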
